A study of Saccharomyces cerevisiae with 3 samples.

Results

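Replication licensing is the step that marks each origin of DNA replication for a single use per cell cycle. The origin recognition complex (ORC) binds the origins, the ATPase Cdc6 joins it, and with Cdt1 they load the ring-shaped Mcm2-7 helicase onto DNA in G1, when cyclin-dependent kinase activity is low. In budding yeast the kinase then blocks reloading by acting on ORC, Cdc6 and the Mcm proteins, and transcripts of CDC6 and of the MCM genes are known to peak around the passage from mitosis to G1. The genes described here are the helicase subunits MCM2 to MCM7, the loader CDC6 and the origin recognition subunits ORC1, ORC2 and ORC6. They were chosen by gene symbol, and each of the 10 genes had 1 probe set, giving 10 of the 5498 probe sets with an S. cerevisiae symbol and of the 10762 non-control probe sets on the array. All 10 had the platform's current symbol, and all 10 probe set names end in _at without a further letter, the form used for probes meant for 1 transcript.

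Total RNA of Saccharomyces cerevisiae was measured on 3 Affymetrix arrays: 100% baseline with 0% spike, 99% baseline with 1% spike, and 90% baseline with 10% spike. Per the labels' protocols, the yeast on every array was strain W303, mating type alpha, carrying cdc15-2, a mutation that makes Cdc15, a kinase of the mitotic exit pathway, fail at high temperature. It was grown at 23 °C in minimal medium in a fermentor and taken 340 minutes after release from the restrictive temperature, so the mutation and the release are shared by all arrays and no other genotype or time serves as a control. The series title names high-concentration spikes in a yeast background as its subject, and what the spike holds is not given in the sources used here. Nor do they say whether the yeast RNA of the 3 arrays came from 1 preparation, so differences between arrays and between preparations cannot be told apart.

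Each group is 1 array, so no value below has an error, no test between arrays was run, and precision is limited by the number of arrays. Values are log2 expression values from RMA (robust multi-array average), and a difference is one array's log2 value minus another's. With 0%, 1% and 10% spike the array medians over 10762 non-control probe sets were 7.75, 7.77 and 7.73. The alpha-cell genes MF(ALPHA)1, MF(ALPHA)2, STE3 and SAG1 ranked between 15 and 261 of 10762 in the baseline array (rank 1 is the highest value). The a-cell genes MFA1, MFA2, STE2, STE6 and BAR1 lay between 9.10 and 10.99 there. All 5 were above the array's median, as were 93.9% of S. cerevisiae probe sets. Among S. cerevisiae probe sets only, STE6 was the lowest of them, above 14.5%, and MFA1 the highest, above 54.5%. Of the 5, 1 lay above the S. cerevisiae median of 10.81.

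The licensing genes had nearly the same RMA values in the 3 arrays. In 10% over baseline 9 of the 10 were within 0.2, as were 95.6% of S. cerevisiae probe sets. The 10% array held 90% baseline (log2 of 0.90 is -0.152), but RMA gives the arrays nearly the same distribution. A shift common to most genes therefore cannot show in these values. Over the 10 genes the range across the 3 arrays was 0 for ORC2 and at most 0.21, for ORC6, and the next widest was 0.11, for MCM5. In the comparison of 10% spike over baseline, 0 of the 10 were at least 2-fold higher and 0 at least 2-fold lower, where 0.0182% of all S. cerevisiae probe sets were higher and 0.0364% lower by that much. In 1% over baseline 0 of the 10 reached 2-fold in either direction, as did 0% of S. cerevisiae probe sets. In 10% over 1% the members' count was again 0, beside 0.0182% of S. cerevisiae probe sets at least 2-fold higher and 0.0364% at least 2-fold lower. At 1.5-fold in either direction the members' counts were also 0, beside 0% of S. cerevisiae probe sets in 1% over baseline, 0.255% in 10% over baseline and 0.146% in 10% over 1%. These shares are so low that a count of 0 of 10 says little about the members themselves.

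**Figure D1:**
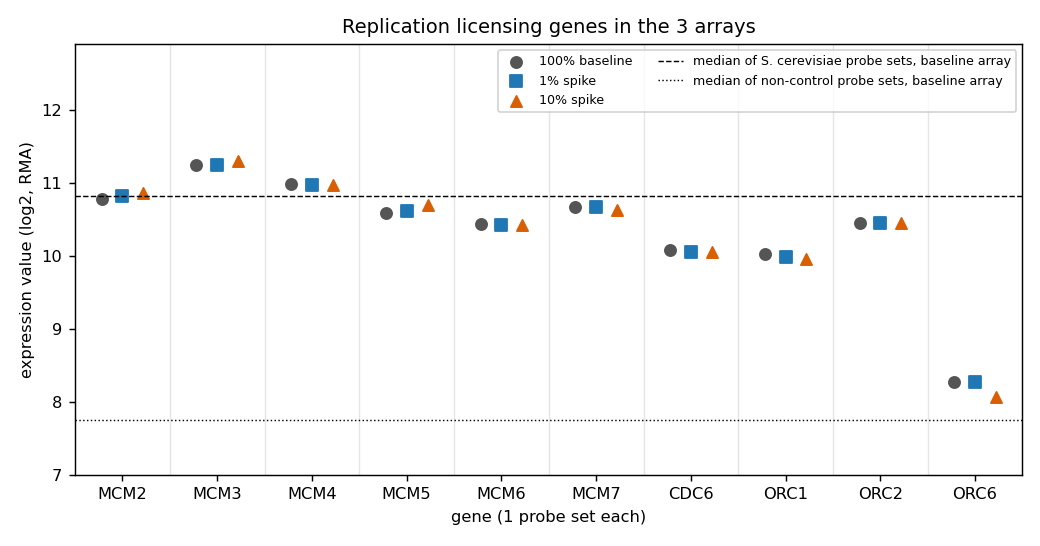
Log2 RMA expression value (y axis) of the 10 replication licensing genes (x axis, 1 probe set each) in the 100% baseline, 1% spike and 10% spike arrays, 1 point per array and no error bars because each group is 1 array. The 3 points of a gene nearly coincide, ORC6 is at 8.06 in the 10% array and 8.28 in the baseline array, and all 10 genes lie above the dotted median of the non-control probe sets.

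The helicase subunits are described first. Mcm2, whose N-terminal tail binds histones, is encoded by MCM2, whose values were 10.78, 10.82 and 10.86 with 0%, 1% and 10% spike. The 10% array was the highest and the baseline array the lowest, with differences of 0.036 for 1% over baseline and 0.078 for 10% over baseline (1.06-fold). MCM3, whose product docks the helicase onto ORC and Cdc6, had 11.24, 11.24 and 11.30 with 0%, 1% and 10% spike. Its baseline and 1% values were identical to 3 decimals and the 10% array was higher by 0.061. MCM5, which forms with Mcm2 the gate through which DNA enters the ring, had 10.59, 10.62 and 10.70 in the baseline, 1% and 10% arrays. Its difference was 0.030 for 1% over baseline and 0.11 for 10% over baseline (1.08-fold). The 10% value was the largest increase among the 10 genes in that comparison. With the arrays centred on their medians the 1% over baseline difference was 0.008 for MCM2 and 0.001 for MCM5, and after quantile normalization over again the 10% over baseline difference of MCM2 was 0.046. A smaller absolute 10% over baseline difference than that of MCM5 as deposited was found for 85.2% of S. cerevisiae probe sets.

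The other 3 helicase genes had smaller differences. MCM4, whose product carries an N-terminal tail phosphorylated by the Dbf4-dependent kinase Cdc7, had 10.98 in the baseline array and 10.97 in both spiked arrays. The difference was -0.006 in 1% over baseline and in 10% over baseline. MCM6, whose C-terminal domain contacts Cdt1, had 10.44 in the baseline array and 10.42 in each spiked array, with 10% over baseline at -0.016. MCM7, a subunit of the helicase core with Mcm4 and Mcm6, had 10.66 in the baseline and 1% arrays and 10.63 in the 10% array, a difference of -0.039 from each. Within the helicase, MCM2, MCM3 and MCM5 were thus higher in the 10% array than in the baseline array, by 0.061 to 0.11, and MCM4, MCM6 and MCM7 lower by 0.006 to 0.039, but with the arrays centred on their medians MCM4 and MCM6 turned to 0.012 and 0.002. MCM2, MCM3 and MCM5 stayed higher after quantile normalization over again, with centred arrays and without the loess trend. This grouping was made after the values were seen. Of all S. cerevisiae probe sets 45.1% were higher and 27.2% lower in 10% over baseline, and the central 95% of their differences ran from -0.23 to 0.17, which contains all 6 helicase genes.

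CDC6, the ATPase that joins ORC to load the helicase and is destroyed once S phase approaches, had 10.08 in the baseline array and 10.05 in both spiked arrays. Its difference from baseline was -0.026 at either spike level, with the spiked arrays identical to 3 decimals. A smaller absolute difference in 10% over baseline was found for 48.0% of S. cerevisiae probe sets, so CDC6 sat near the middle of that spread. In 1% over baseline, where differences were narrower, 82.0% had a smaller absolute one.

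Among the origin recognition subunits, ORC1, an ATPase that also takes part in transcriptional silencing at the mating-type loci, had 10.03, 9.98 and 9.96 with 0%, 1% and 10% spike. The baseline array was the highest, and the differences were -0.053 for 1% over baseline and -0.071 for 10% over baseline (0.952-fold). The 1% difference of ORC1 was the largest of the 10 genes in that comparison, and 92.4% of S. cerevisiae probe sets had a smaller absolute one. ORC2, a structural subunit that the cyclin-dependent kinase phosphorylates, was at 10.45 in all 3 arrays, identical to 3 decimals, as were 25.9% of S. cerevisiae probe sets.

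ORC6, the subunit that binds Cdt1 during helicase loading, differed most. Its value was 8.06 in the 10% array, against 8.28 in both the 1% and the baseline array. Only the 10% array was lower, with a difference of -0.21 (0.864-fold) from each of the other arrays. In 10% over baseline, 1 of the 10 members (ORC6) was lower by 0.2 or more, beside 3% of S. cerevisiae probe sets, in 10% over 1% it was again 1 of 10, beside 2.56%, and in 1% over baseline it was 0 of 10, beside 0.291%. The comparisons share arrays. In 10% over 1% ORC6 was the 1 member outside the central 95% of S. cerevisiae probe sets, which ran from -0.20 to 0.15 there. The value of ORC6 was the lowest among the 10 probe sets on each array, and S. cerevisiae probe sets near it spread more widely than those near MCM5. Of 246 other S. cerevisiae probe sets within 0.5 of its mean value of 8.21, 30 (12.2%) were lower by at least as much, and the central 95% of their differences ran from -0.42 to 0.13. For MCM5, at a mean value of 10.64, the same window held 1408 probe sets with a central 95% from -0.13 to 0.18, and 157 of them (11.2%) were higher by at least as much. The part of signal level in the ORC6 difference was not tested. The 10% array also differed from the others in spike share. With 1 array per group, spike share, array, RNA preparation, cells expressing a gene and RNA per cell cannot be told apart.

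**Figure D2:**
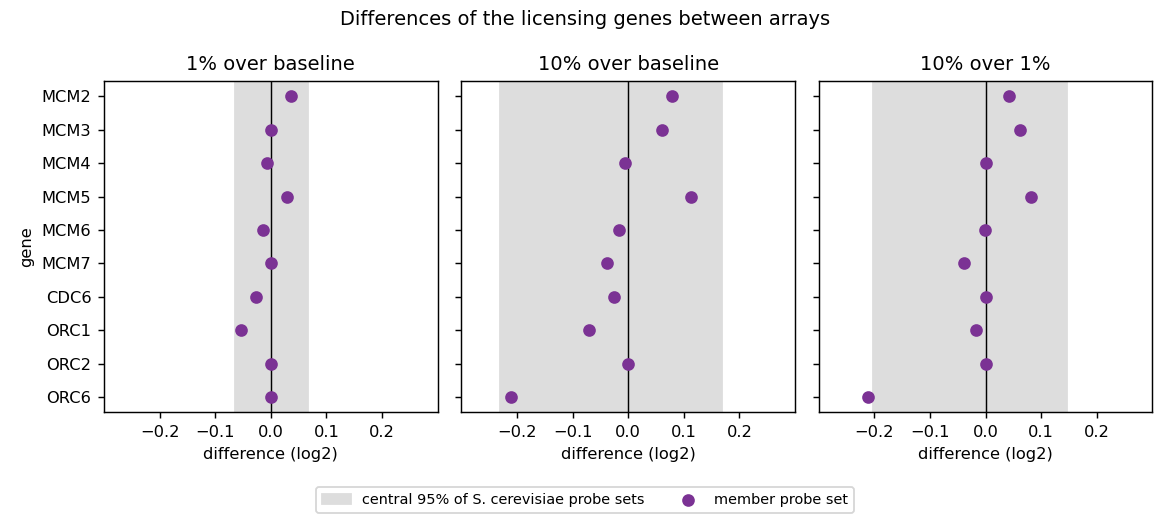
Difference in log2 value (x axes) of each licensing gene (y axis) for 1% over baseline, 10% over baseline and 10% over 1%, with grey bands for the central 95% of the 5498 S. cerevisiae probe sets. All points lie within the bands in the first and second panels, and ORC6 at -0.21 lies just outside the band, which starts at -0.20, in the third.

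The direction of the small differences was mixed. In 1% over baseline 2 of the 10 genes were higher, 4 lower and 4 identical to 3 decimals, against 22.6%, 14.5% and 62.9% of S. cerevisiae probe sets. In 10% over baseline 3 were higher, 6 lower and 1 identical, beside 45.1%, 27.2% and 27.7%. In 10% over 1% the counts were 3 higher, 4 lower and 3 identical, beside 41.2%, 24.2% and 34.6%. The members' median difference was 0 in 1% over baseline, -0.011 in 10% over baseline and 0 in 10% over 1%, and the median of all S. cerevisiae probe sets was 0 in each. The comparisons share arrays, so these counts are not independent of each other. Without ORC6 the members' median in 10% over baseline was -0.006. The counts of the 10 genes also depended on the processing. With centred arrays 6 were higher and 4 lower in 10% over baseline, and 9 higher and 1 lower in 10% over 1%. After quantile normalization over again, and likewise without the loess trend, 3 were higher and 7 lower in each of these comparisons.

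Exact equality between arrays was frequent. Median polish, the last step of RMA, can return equal values with so few arrays. Of the 10 genes, 1 was equal in all 3 arrays (ORC2), 5 were equal in a pair of arrays and 4 differed in all 3 (MCM2, MCM5, MCM6 and ORC1). Over all S. cerevisiae probe sets the shares were 25.9%, 47.4% and 26.7%. The equal pair was the baseline and 1% arrays for MCM3, MCM7 and ORC6, and the 1% and 10% arrays for MCM4 and CDC6. A difference of 0 is therefore not a more precise measurement than a small one.

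The rank of each value places it on its own array; probes differ in affinity, so ranks give no order of transcript amounts between genes. All 10 licensing genes lay above the array's median in each of the 3 arrays, as did 93.9%, 93.7% and 93.6% of S. cerevisiae probe sets with 0%, 1% and 10% spike, so this count is near that of yeast genes at large. Set against S. cerevisiae probe sets only, whose median was 10.81 in the baseline array, 2 of the 10 lay above it without spike (MCM3 and MCM4), 2 with 1% spike and 3 with 10% spike, where MCM2 joined them. MCM3 lay above 79.2%, 79.1% and 79.7% of non-control probe sets with 0%, 1% and 10% spike. MCM5, the gene with the largest increase in 10% over baseline, lay above 70.4%, 70.7% and 71.7% in the same order of arrays. The place of MCM2 was above 73.1%, 73.5% and 73.8%. For MCM4 the shares were 75.9%, 75.7% and 75.4%, for MCM6 68.4%, 68.0% and 67.9%, and for MCM7 71.4%, 71.3% and 70.6%. Among non-control probe sets MCM5 was the only member to move by more than 1 percentage point over the arrays. Among S. cerevisiae probe sets only, MCM2, MCM3, MCM7 and ORC1 moved by more than 1 percentage point too.

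With 0%, 1% and 10% spike CDC6 lay above 63.6%, 63.1% and 63.1% of non-control probe sets. For ORC1 the shares were 63.0%, 62.4% and 62.1%. ORC2, with its identical values, still shifted slightly in rank, lying above 68.6%, 68.5% and 68.4% with 0%, 1% and 10% spike. ORC6 was above 51.2% in the baseline and 1% arrays and 50.7% in the 10% array. Among S. cerevisiae probe sets only, ORC6 lay above 8.18%, 8.22% and 7.51% in the baseline, 1% and 10% arrays, so it stood near the lower end of the yeast genes.

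The array also carries probe sets whose symbols are the lower-case spelling of the same names (mcm2 to mcm7, cdc6, orc1, orc2 and orc6). Their organism is not given in the sources used here, and an equal spelling does not mean an equivalent gene. All 10 of them lay below the array's median in each of the 3 arrays, between 4.21 and 5.42 in the baseline array, whereas the 10 licensing genes lay between 8.28 and 11.24. The widest difference among the 10 lower-case probe sets was that of orc6, at 3.84 in the 10% array against 4.29 in the baseline array, a difference of -0.45. The remaining 9 differed by -0.20 to 0.11 in 10% over baseline. None of the 10 was 2-fold higher in either spiked array. Of the 10762 non-control probe sets, 7 were in 1% over baseline and 12 in 10% over baseline. With so few, a count of 0 of 10 says little about these probe sets.

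**Figure D3:**
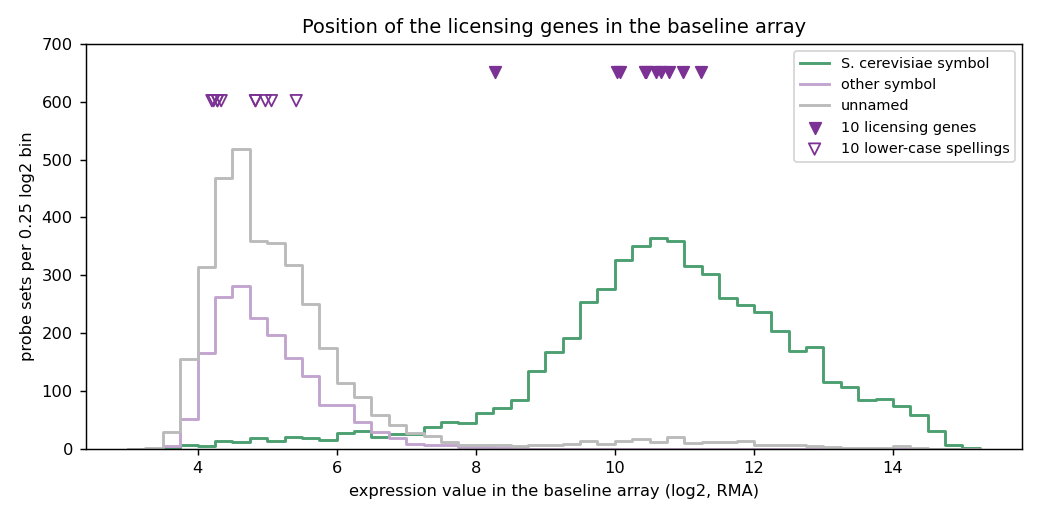
Number of probe sets per bin (y axis) by log2 value in the baseline array (x axis), as lines for probe sets with an S. cerevisiae symbol, another symbol or no name. Filled triangles mark the 10 licensing genes (8.28 to 11.24) and open triangles the 10 lower-case spellings (4.21 to 5.42), and the heights of the triangles carry no value.

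The rest of the pathway was read from lists of its other genes. Of 5 further loading factors, 0 were higher, 1 lower and 4 identical in 10% over baseline. The origin recognition gene ORC3 was at -0.11, with 9.97 in the 10% array against 10.07 in the baseline array. ORC4, ORC5, NOC3 (a replication-initiation and ribosome-assembly factor) and TAH11, which encodes Cdt1, each had 1 value in all 3 arrays, TAH11 at 10.54. Of S. cerevisiae probe sets 25.9% also had 1 value in all 3 arrays. Over the 6 genes ORC1 to ORC6 together, 0 were higher, 3 lower and 3 identical in 10% over baseline, with a median of -0.036. The shares of S. cerevisiae probe sets are those given for the loading factors. With centred arrays 3 of the 6 genes were higher and 3 lower. After quantile normalization over again, and likewise without the loess trend, 0 were higher and 6 lower. The median of S. cerevisiae probe sets was 0.018 with centred arrays, -0.013 after quantile normalization and -0.006 without the loess trend. The group ORC1 to ORC6 was formed after the values were seen.

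Origin firing factors turn a licensed origin into a pair of replication forks. Of 12 measured, 3 were higher, 3 lower and 6 identical in 10% over baseline, beside 45.1%, 27.2% and 27.7% of S. cerevisiae probe sets. The median of the 12 was 0. SLD2, a kinase substrate that binds Dpb11, was at -0.13, with 8.14 in the 10% array against 8.27 in the baseline array. SLD5, a subunit of the GINS complex, was at 0.11, with 9.86 against 9.75. The helicase cofactor CDC45 was at 9.48 in all 3 arrays. CDC7 had 9.38 in the 1% array, against 9.33 in the baseline and the 10% array, and its partner DBF4 was at -0.077 in 10% over baseline. All 12 firing factors lay within 0.2 in each comparison, as did 99.7% of S. cerevisiae probe sets in 1% over baseline, 95.6% in 10% over baseline and 96.9% in 10% over 1%.

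Cyclin-dependent kinase and the ubiquitin ligase SCF limit licensing to G1. Of 8 genes, 2 were higher, 1 lower and 5 identical in 10% over baseline, beside 45.1%, 27.2% and 27.7% of S. cerevisiae probe sets. The SCF scaffold gene CDC53 was at 0.16, with 10.91 in the 10% array against 10.75 in the baseline array. The S-phase cyclin CLB6 was at -0.065 and CLB5 at 0.036, and SIC1, the inhibitor of their kinase, was at 11.16 in all 3 arrays. CDC4, CDC34 and SKP1 also held 1 value each, as did 25.9% of S. cerevisiae probe sets. CDC28, the kinase itself, had the same value in the 10% and baseline arrays.

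Several transcription factors drive cell-cycle genes such as these. Of 7 measured, 5 were higher, 0 lower and 2 identical in 10% over baseline, beside 45.1%, 27.2% and 27.7% of S. cerevisiae probe sets. After quantile normalization over again 4 were higher and 3 lower, with centred arrays 7 and 0, and without the loess trend 5 and 2. MCM1, which binds the early cell cycle box of MCM and CDC6 promoters, was at 0.10, with 11.66 in the 10% array against 11.56 in the baseline array. SWI4 was at 0.063, YHP1, a repressor that acts with Mcm1, at 0.016, and SWI5, an activator of genes including CDC6, at 0. Over all 32 genes of the lists, 10 were higher, 5 lower and 17 identical as deposited, with differences from -0.13 to 0.16 and a median of 0. The S. cerevisiae shares beside these counts are again 45.1%, 27.2% and 27.7%. After quantile normalization over again 10 of the 32 were higher and 22 lower, and with centred arrays 28 were higher and 4 lower.

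**Figure D4:**
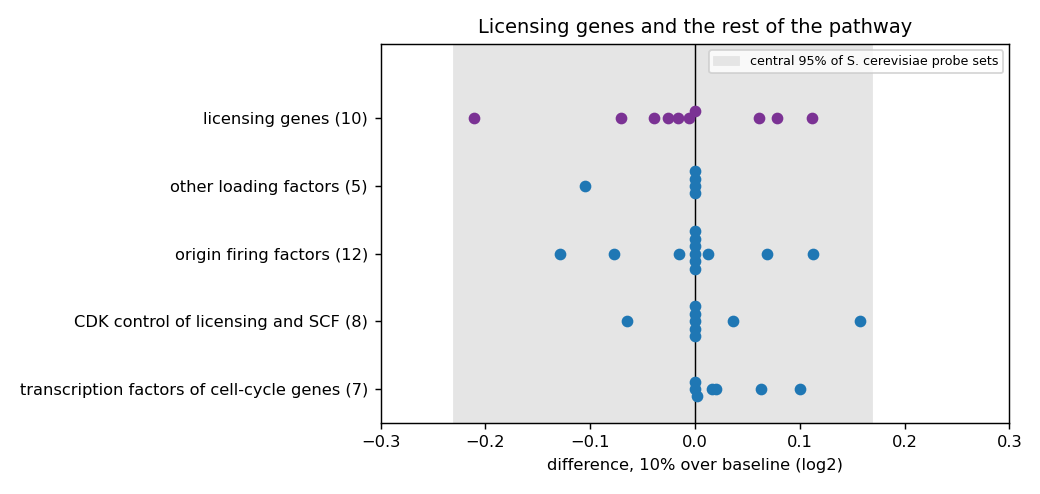
Difference in log2 value for 10% over baseline (x axis) of the 10 licensing genes and of the 32 genes in 4 lists of the same pathway (rows, number of genes in brackets), 1 point per gene, shifted vertically where points coincide. The grey band is the central 95% of S. cerevisiae probe sets (-0.23 to 0.17), and all points lie within it.

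The pattern of ORC6, the member with the largest 10% over baseline difference, was shared with other genes. By Euclidean distance over the differences 1% over baseline and 10% over baseline (3 arrays), TIP20 and YMR315W-A lay at distance 0, with 9.92 and 5.49 in the 10% array against 10.13 and 5.70 in the baseline array. CHA1, MIP6 and YDL109C came next, each at a distance of 0.002. For ORC2, 1426 S. cerevisiae probe sets held 1 value in all 3 arrays. Likeness over 3 arrays of this kind is a description of values only.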

How the data were processed

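The deposited table holds log2 expression values made by the authors with RMA, per the submitters' processing notes, 1 per probe set and array (3 arrays, 10928 probe sets). No label states the scale, which was taken as log2 because RMA usually gives log2 and the values ran from 3.465 to 15.13. RMA gives the arrays nearly the same distribution, so a shift common to most genes cannot show. Not given in the sources used here were RMA's version, the arrays normalized together and the genome build. Names came from the platform annotation, updated by gene identifier to S. cerevisiae assembly R64; 166 control probe sets were left out.

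Values were used as deposited, differences were rounded to 3 decimals, and calls were made at 2-fold (Python 3.11.15, pandas 2.3.3). No test was possible with 1 array per group. Counting at 2-fold and the size of differences were tested on simulated data with planted differences. Ranking was not tested in this way. Alternatives were quantile normalization over again, centring on the median, removal of a loess trend (fraction 0.3), a 1.5-fold threshold and ranking among S. cerevisiae probe sets. All 10 members are named; in each list the genes with the largest differences and those near the median are named. Members and lists were chosen with earlier results of these data known.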

Additional observations from a re-analysis of the deposited data

How the results depend on the processing

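The counts of licensing genes at or past 2-fold were 0 in each direction and comparison as deposited, after quantile normalization over again, after centring on the median, after removal of a loess trend and at 1.5-fold. The members' median for 10% over baseline was -0.011 as deposited, -0.0355 after quantile normalization, 0.007 with centred arrays and -0.023 without the loess trend, while the median of S. cerevisiae probe sets was 0, -0.013, 0.018 and -0.006 under the same settings. Centring turned the sign of 2 of the 10 members in 10% over baseline (MCM4 and MCM6) and of 3 in 10% over 1%. ORC6 in 10% over baseline ran from -0.21 as deposited to -0.18 after quantile normalization, and MCM5 from 0.090 after it to 0.13 with centred arrays. The number of members above the median was 10 in each array among non-control probe sets, and among S. cerevisiae probe sets 2 without spike, 2 with 1% spike and 3 with 10% spike; the cause is the change of probe sets ranked. No paired analysis was possible because each group is 1 array. Without replicates no spread between arrays of a group is known, so differences of this size cannot be set against an error.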
